A study of Rattus norvegicus with 68 samples.

Results

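The collagen and stromal matrix genes described here are Col1a1, Col1a2, Col3a1, Dcn, Lum, Bgn, Ogn, Fn1, Postn and Spp1. They were chosen by symbol, and a gene with several probe sets was read from the brightest of them on average. All 10 were measured, among 14217 genes in all. No low-signal filter was applied, and the group means of the 10 ran from 8.61 to 14.11 on the log2 scale. Signals of different probe sets are not compared with each other, because each probe set has its own brightness.

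The arrays measured RNA from cells that a collagenase and pronase digestion released from the level II region of the rat nose, after the maxilloturbinate and the olfactory epithelium had been discarded. The animals were male F344/CrlBR rats, 8 weeks of age by the labels, exposed to airborne formaldehyde by whole-body inhalation, 5 days a week and 6 h a day. The age label is the same at every time. In comparisons between times, age at collection therefore cannot be told apart from the duration of exposure. Each of the 68 arrays held 1 animal, and the 17 groups held 4 animals each. At 5 d and at 13 w the exposed groups received 0.7 or 2 ppm, 6 or 10 ppm, or 15 ppm, beside unexposed animals at 0 ppm. At 4 w the same exposed groups were analysed, and 0.7 ppm served as the reference, so no comparison at 4 w is against unexposed animals. The treatment field of nearly all samples of 4 w gives a duration of 5 days, against 4 weeks in their titles and time tags, which were followed. The titles of 0 ppm samples carry codes beginning with ACO and those of exposed samples carry HCHO, and this difference cannot be told apart from dose.

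Values are log2 signals as deposited, 1 unit being a doubling of signal. A mean is followed by the SD over 4 animals, and a difference between groups by the SE of the limma fit, which pools the spread of all 17 groups. A gene was called where its Benjamini-Hochberg adjusted p over 14217 genes in that comparison was under 0.05. Array medians lay between 6.82 and 6.96.

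Fibrillar collagens are the ropes of connective tissue. The type I fibril is assembled from the chains of Col1a1 and Col1a2, and type III collagen, the product of Col3a1, shares fibrils with it in soft tissue and in healing wounds. Decorin (Dcn), lumican (Lum), biglycan (Bgn) and osteoglycin (Ogn) are small leucine-rich proteoglycans, of which decorin and lumican bind collagen fibrils and regulate their assembly. Fibronectin (Fn1) is an adhesive glycoprotein that cells lay down early in wound repair, periostin (Postn) is a matricellular protein of stressed connective tissue and periosteum, and osteopontin (Spp1) is a secreted phosphoprotein of bone, macrophages and some epithelia. In the nose most of these genes belong mainly to the lamina propria and the turbinate bone beneath the epithelium rather than to the epithelial cells. Which cells gave the signal of each gene was not tested here.

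The labelled tissue was checked against markers. The 10 epithelial markers measured were bright, with mean signals over all arrays from 11.46 (Cldn7) to 14.42 (Krt15). Markers of other cells were present as well, among them the osteocalcin gene Bglap at 12.96, the bone sialoprotein gene Ibsp at 10.59, the mesenchymal genes S100a4 at 12.05 and Vim at 11.92, the olfactory gene Omp at 12.30 and the red cell gene Hbb at 14.64. The cartilage markers ranged from 5.11 (Hapln1) to 7.86 (Col10a1), and 4 of the 8 lay under 6. These are bulk samples, so fewer stromal cells in a preparation and less matrix RNA per stromal cell cannot be told apart for any result here.

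Upstream sequence was at hand for 5 of the 10 genes (Col1a2, Postn, Lum, Spp1 and Ogn), from RefSeq on the rat build GRCr8. Of these, 3 stretches of 100 bases are shown, for a fibrillar collagen and for the glycoproteins Postn and Spp1, and capitals mark the letters TATAAA and CCAAT wherever they occur on either strand. Col1a2, bases 250 to 151 before the annotated start, chr4:33518307-33518406, plus strand, and Postn, bases 100 to 1 before its start, chr2:140677961-140678060, plus strand, are followed by Spp1, bases 100 to 1 before its start, chr14:5619805-5619904, minus strand:
Col1a2: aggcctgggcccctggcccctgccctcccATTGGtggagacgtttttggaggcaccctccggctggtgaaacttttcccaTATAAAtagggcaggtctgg
Postn: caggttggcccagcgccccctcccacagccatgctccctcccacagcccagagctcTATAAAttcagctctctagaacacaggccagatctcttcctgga
Spp1: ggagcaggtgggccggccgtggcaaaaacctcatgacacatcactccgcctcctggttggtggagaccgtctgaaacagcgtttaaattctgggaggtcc

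The Col1a2 stretch was taken from the far end of its window because the letters TATAAA lie there, and whether the annotated start is its main transcription start was not checked, so distances are to the annotation alone. TATAAA began 170 bases before the annotated start of Col1a2 and 44 bases before that of Postn, and CCAAT lay on the opposite strand of Col1a2, 221 bases before the start. Within the full 250 bases before the start, 4 of the 5 genes held TATAAA and 2 held CCAAT, against 12.9% and 34.0% of all 33469 windows of that length. The Spp1 stretch held neither. A match is a description of the letters and was not tied to any measured difference.

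The 10 genes varied far more between animals of one group than most genes did. Their SD between animals ran from 0.489 (Col1a2) to 0.764 (Lum), at the percentiles 95.6 to 98.7 of all genes, whose median SD was 0.148. An SE of a difference was accordingly 0.34 to 0.53 for these genes, against a median of 0.104 for all genes. The group means took up 35.7% (Lum) to 57.9% (Col1a2) of their variance, a range that holds the median of all genes, 47%. These shares were not corrected for the number of groups, so part of each would arise with no effect of dose or time.

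The animals departed from their group means in the same direction for most of the genes. On 45 of the 68 arrays all 10 genes lay on the same side of their group mean. Over the 45 pairs of genes and the 68 arrays, the correlation of these departures ran from 0.70 to 0.98 with a median of 0.87. Col1a1 and Col1a2, the chains of one fibril, had 0.97. The points share the array and the tissue preparation, so these values describe the animals and carry no test. For the same reason, a common sign or a count of calls over the 10 genes does not stand for 10 separate observations.

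Some animals stood well apart. At 4 w, animal 338 of the 10 ppm group lay below its group mean by 0.76 to 1.72 for every one of the 10 genes (mean -1.26). In the same direction, animal 260 of 0.7 ppm at 13 w had a mean departure of -1.13 and animal 368 of 15 ppm at 4 w one of -0.93. Above their groups were animal 310 of 6 ppm at 4 w, with a mean departure of 1.28, and animal 362 of 15 ppm at 4 w, with 1.09. The range within a group passed 2 log2 units for 8 of the 10 genes in at least 1 of the 4 w groups at 6, 10 or 15 ppm, and not for Col1a1 or Col1a2.

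**Figure D1:**
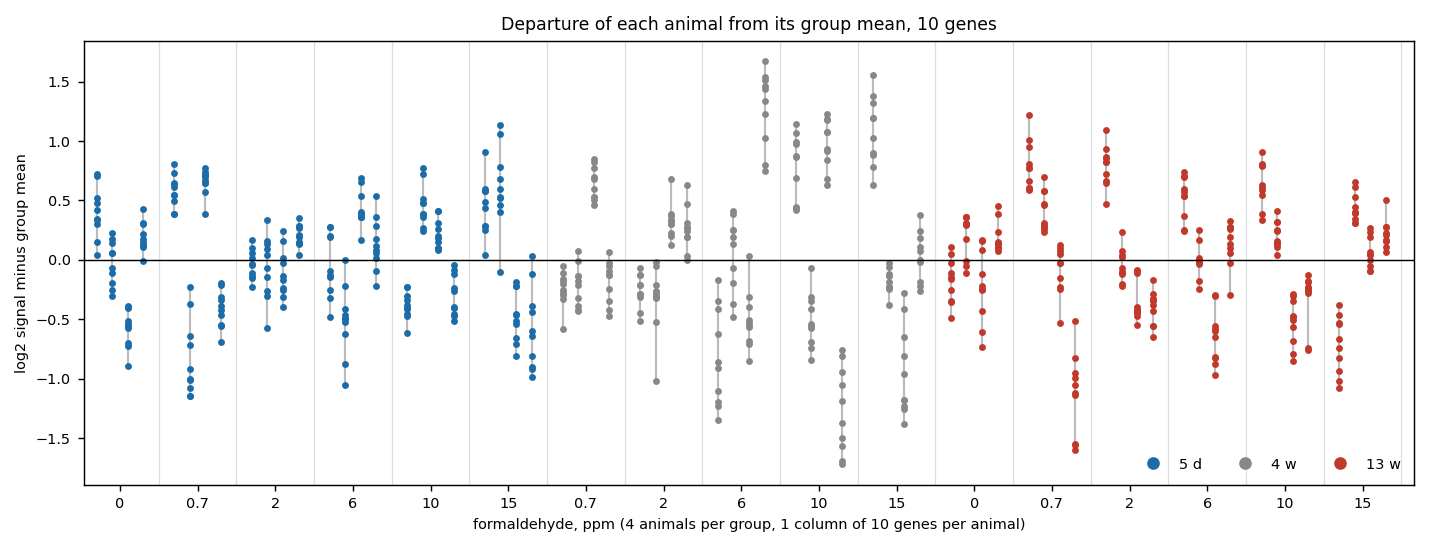
Log2 signal minus the group mean (vertical axis) for the 10 genes of each animal (1 column of points per animal, joined by a grey line), by dose in ppm and coloured by time. Most columns sit wholly above or wholly below 0, as on 45 of the 68 arrays, and wide departures are seen in the 4 w groups at 6, 10 and 15 ppm and in the 0.7 ppm group of 13 w.

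Most of these genes were lower after 13 w at 15 ppm. Against 0 ppm, 7 of the 10 were called lower and 0 higher, where 20.6% of all genes were called lower and 23.5% higher. The median difference of the 10 was -1.10, against -0.02 for all genes, all 10 differences were negative, and for 7 genes all 4 exposed animals lay below all 4 unexposed ones, as they did for 18.5% of all genes. The calls for Col1a1, Col1a2, Ogn and Dcn were made under all 13 alternatives and without any of the 8 animals in turn. Leaving out animal 226 or 230 of 0 ppm or animal 375, 378 or 379 of 15 ppm left 4 calls. With 0.7 ppm as the reference in place of 0 ppm, 4 genes were called, and Spp1, Bgn and Postn were not.

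Among the fibrillar collagens at 13 w, Col1a2 had signals of 13.75, 13.75, 13.95 and 14.00 in unexposed animals and of 11.92, 12.61, 12.20 and 12.47 at 15 ppm. The groups were more than 1 log2 unit apart, and Col1a2 fell by 1.56 ± 0.34 (adjusted p = 0.000111, limma), a 2.95-fold lower signal. Col1a1 went from 12.64, 12.85, 13.07 and 13.04 to 10.89, 11.76, 11.33 and 11.69, again without overlap. It fell by 1.48 ± 0.40 (adjusted p = 0.00166), and its other probe set, in a fit over all probe sets, by 1.73 ± 0.43. Col3a1 had 11.41, 12.12, 11.64 and 11.86 against 9.74, 11.35, 10.86 and 11.32. The Col3a1 groups did not overlap either, but its difference of -0.94 ± 0.52 was not called (adjusted p = 0.141).

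Among the proteoglycans at 13 w, Dcn had the largest difference of the 10 genes. Its signals were 11.17, 11.63, 11.12 and 11.41 without exposure and 8.50, 9.65, 9.48 and 9.36 at 15 ppm, so that the highest exposed animal stood more than 1 unit below the lowest unexposed one. Dcn fell by 2.08 ± 0.44 (adjusted p = 7.28e-05), a 4.24-fold lower signal. Ogn, with 10.88, 10.82, 10.40 and 11.22 against 8.27, 9.86, 9.21 and 9.48, fell by 1.63 ± 0.48 (adjusted p = 0.00418), and its other 3 probe sets fell by 1.58, 1.96 and 2.16. Bgn had 9.46, 9.89, 9.35 and 9.71 against 8.07, 8.92, 8.68 and 8.78.

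These Bgn groups did not overlap and the difference was -0.99 ± 0.42 (adjusted p = 0.0482), a call that ended when any of 7 of the 8 animals was left out (all but 15 ppm animal 377, adjusted p up to 0.145). Lum, with 11.70, 12.42, 11.81 and 12.29 against 10.12, 11.75, 11.33 and 11.35, overlapped in 1 exposed animal. Its difference of -0.92 ± 0.53 was not called (adjusted p = 0.158).

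Of the glycoproteins at 13 w, Postn was called at -1.20 ± 0.50 (adjusted p = 0.0441), with 10.50, 11.16, 11.15 and 11.14 in unexposed animals and 8.97, 10.19, 10.06 and 9.95 at 15 ppm. Its groups did not overlap, and its call ended without 0 ppm animal 226, 229 or 230 or 15 ppm animal 375, 378 or 379 (adjusted p up to 0.161). Spp1 had 13.01, 13.27, 12.30 and 13.04 against 11.44, 12.35, 11.85 and 11.97, with 1 exposed animal inside the unexposed range. Its call, at -1.01 ± 0.42 (adjusted p = 0.0452), ended without 0 ppm animal 225, 226 or 230 or 15 ppm animal 375, 378 or 379 (adjusted p up to 0.126). Fn1, with 9.39, 9.73, 8.69 and 9.88 against 8.28, 9.35, 9.0 and 9.18, overlapped widely. The Fn1 difference of -0.47 ± 0.43 was not called (adjusted p = 0.407).

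RNA quality differed between the same groups. The RNA integrity number was 8.90 ± 0.36 (SD, n = 3) at 15 ppm and 7.57 ± 0.23 (SD, n = 3) at 0 ppm after 13 w. With that number as a covariate 5 of the 10 genes were called, and with the difference between the 3′ and 5′ beta-actin probe sets as a covariate 4 were. Within groups the correlation of the mean collagen signal with the integrity number was 0.13 over 63 arrays and with the beta-actin difference -0.09 over 68.

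At 10 ppm after 13 w, 4 of the 10 genes were called lower and 0 higher, where 12.5% of all genes were called lower and 13.8% higher. Col1a1 fell by 1.33 ± 0.40 (adjusted p = 0.00845), Col1a2 by 1.23 ± 0.34 (adjusted p = 0.0042), Dcn by 1.38 ± 0.44 (adjusted p = 0.0139) and Ogn by 1.24 ± 0.48 (adjusted p = 0.0488). For each of these 4 genes all exposed animals lay below all unexposed ones, as for 13.5% of all genes. The Ogn call ended without 0 ppm animal 225, 226 or 230 or 10 ppm animal 346, 348 or 349 (adjusted p up to 0.128), and was made under 6 of 13 alternatives. Leaving out 10 ppm animal 349, the lowest for Col1a1 at 10.80, left 2 calls and put Col1a1 at an adjusted p of 0.0623. With 0.7 ppm as the reference in place of 0 ppm, 0 genes were called. The 15 and 10 ppm comparisons share their 0 ppm animals.

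Below 10 ppm at 13 w the differences did not follow the order of the doses. At 6 ppm 0 of the 10 genes were called, where 12.2% of all genes were, and the median difference was -0.03. At 2 ppm 0 were called, where 0.00703% of all genes were. All 10 differences at 2 ppm were negative, with a median of -0.92, and 5 had an unadjusted p under 0.05, where 10.2% of all genes did. The 10 genes departed together from animal to animal, so these are not 10 separate observations. Col1a1 at 2 ppm had 12.48, 11.55, 11.21 and 11.25, all below the unexposed animals, and Col1a2 and Dcn did not overlap with 0 ppm either, where 5.46% of all genes lay wholly below. At 0.7 ppm 0 genes were called, where 0% of all genes were, with a median of -0.42.

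In the order of group means at 13 w, 15 ppm came last for 7 genes and 2 ppm for Col3a1, Lum and Fn1, while 0 or 6 ppm came first for all 10. No neighbours in that order differed for any of the genes at any time. The lowest adjusted p of neighbours was 0.0702, for Fn1 between 15 and 2 ppm at 5 d.

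**Figure D2:**
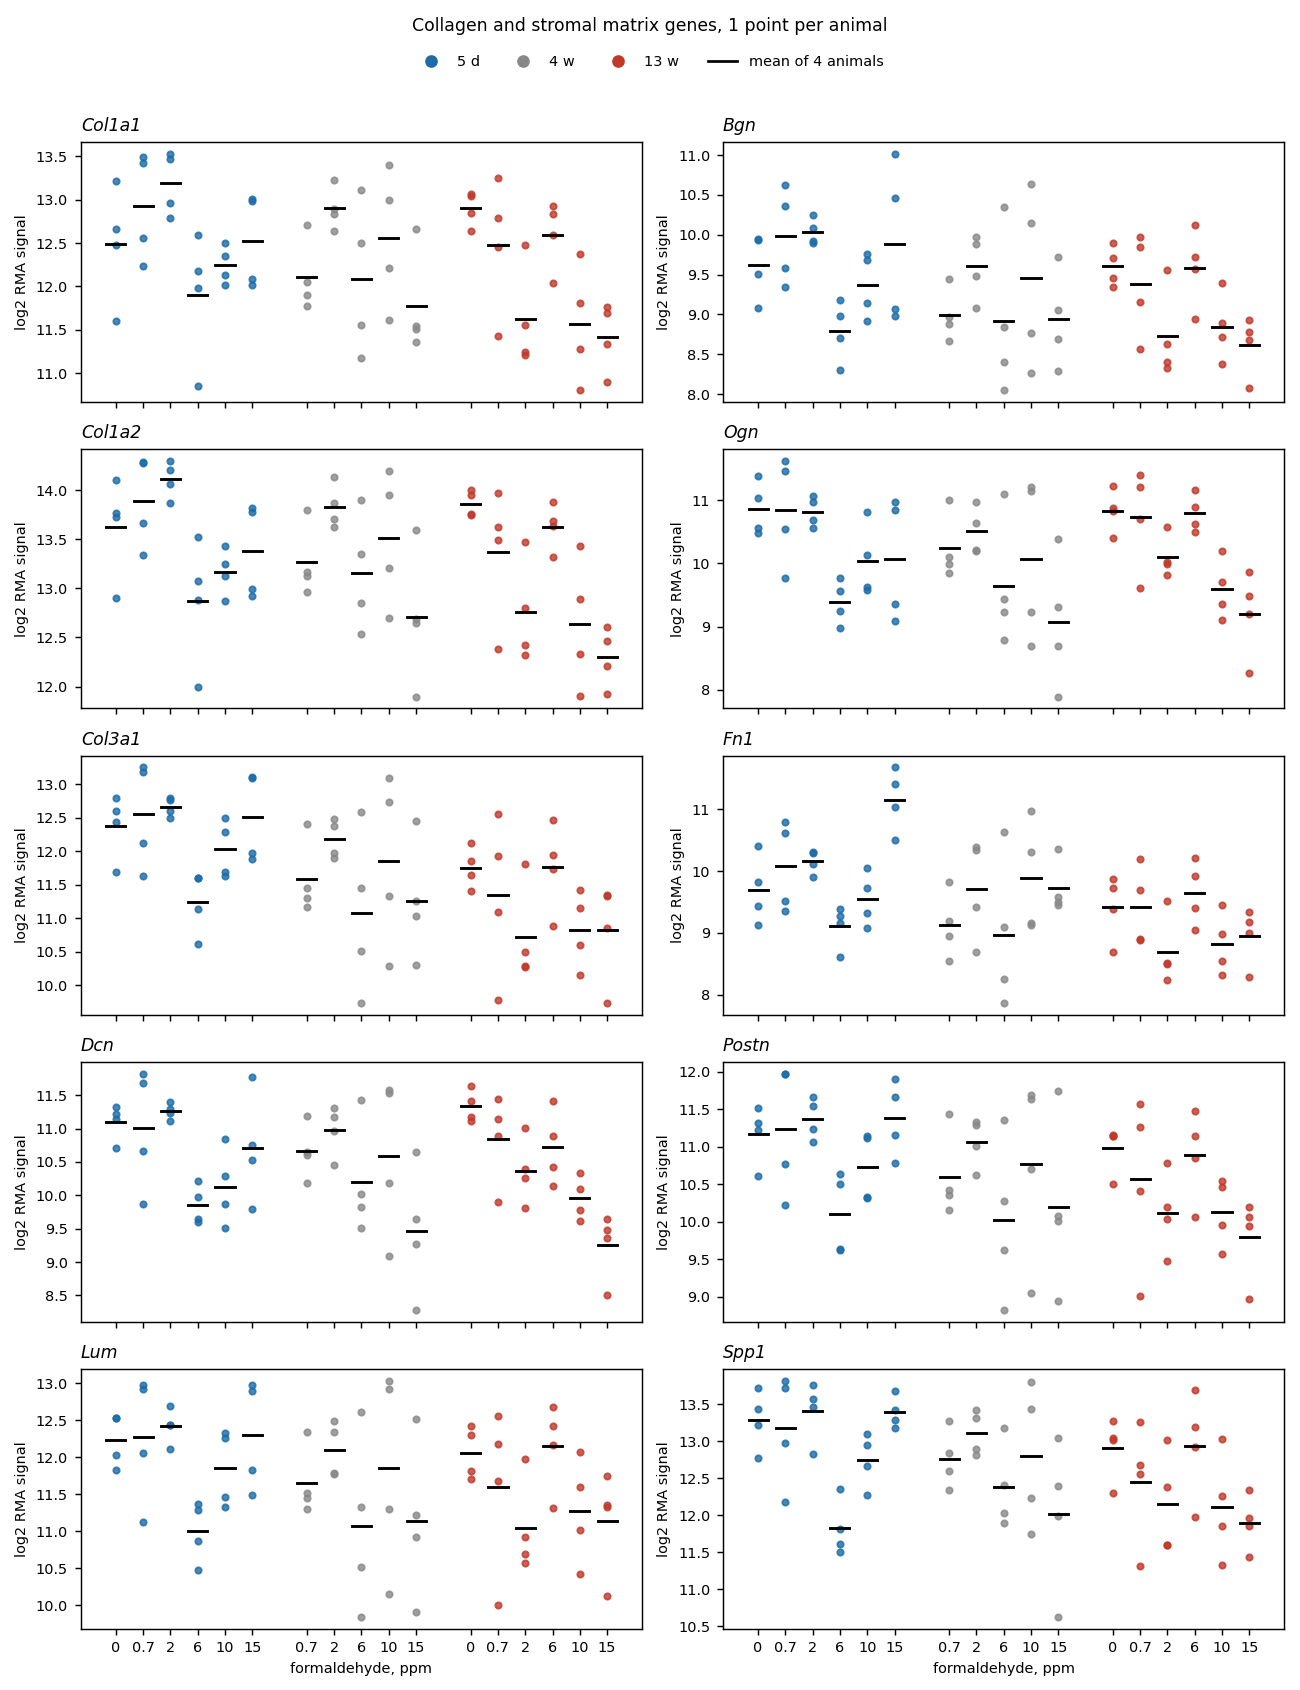
Log2 RMA signal (vertical axis) of the 10 genes in each animal (points) with the group mean of 4 animals (black bars), by formaldehyde dose in ppm and by time (5 d blue, 4 w grey, 13 w red). At 13 w the 15 ppm animals of Dcn lie between 8.50 and 9.65 and the 0 ppm animals between 11.12 and 11.63, and at 5 d the 15 ppm animals of Fn1 lie above all 0 ppm animals.

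After 5 d, Spp1 and Ogn were lower at 6 ppm and Fn1 was higher at 15 ppm. At 6 ppm all 10 differences from 0 ppm were negative, with a median of -1.10, and 2 genes were called lower and 0 higher, where 5.30% of all genes were called lower and 3.54% higher. Spp1 had 13.44, 13.22, 12.78 and 13.72 without exposure and 11.50, 11.82, 12.36 and 11.61 at 6 ppm. Its groups did not overlap, and it fell by 1.47 ± 0.42 (adjusted p = 0.019). Ogn, with 11.38, 10.57, 10.47 and 11.04 against 9.24, 8.98, 9.77 and 9.57, did not overlap either and fell by 1.48 ± 0.48 (adjusted p = 0.0416). Its other probe sets had differences of -1.19, -1.21 and -1.49 in a fit over all probe sets. None of them was called (adjusted p = 0.144, 0.12 and 0.0717).

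The groups of Col3a1, Dcn and Lum were also apart at 6 ppm, though none of these was called. That made 5 of the 10 genes wholly below 0 ppm, where 10.6% of all genes were. Col3a1, for example, had 12.80, 12.44, 11.68 and 12.60 against 11.14, 10.61, 11.60 and 11.59. Both calls at 6 ppm were sensitive to single animals. Leaving out 0 ppm animal 204 or 210 or 6 ppm animal 295 or 300 left 0 calls, with adjusted p up to 0.0685 for Spp1, and the Ogn call also ended without 0 ppm animal 207 or 6 ppm animal 298 (up to 0.13). The difference between the 3′ and 5′ beta-actin probe sets was 2.61 ± 0.17 at 6 ppm and 1.71 ± 0.20 at 0 ppm (SD, n = 4), and with it as a covariate 0 of the 10 were called.

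After 5 d at 15 ppm, Fn1 was called higher and none of the other 9 genes was called, where 18.3% of all genes were called higher and 19.5% lower. Fn1 had 10.40, 9.44, 9.12 and 9.83 in unexposed animals and 11.41, 11.68, 10.50 and 11.04 at 15 ppm. All exposed animals exceeded all unexposed ones, and the rise was 1.46 ± 0.43 (adjusted p = 0.00515), a 2.75-fold higher signal. The call was made under all 13 alternatives and without any of the 8 animals. Fn1 is measured by 1 probe set on this array. The collagens had differences of 0.03 ± 0.40 for Col1a1, -0.25 ± 0.34 for Col1a2 and 0.14 ± 0.52 for Col3a1, and Ogn had the lowest difference at -0.80 ± 0.48 (adjusted p = 0.201).

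At 10 ppm after 5 d, 0 genes were called, where 15.5% of all genes were, and all 10 differences were negative with a median of -0.41. At 2 and 0.7 ppm 0 were called, where 0.0281% and 0% of all genes were. The medians there were 0.24 and 0.12.

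The 15 ppm animals were also set directly against the 6 ppm animals of the same time. After 5 d, 4 of the 10 genes were higher at 15 than at 6 ppm and 0 lower, where 16.2% of all genes were called higher and 11.7% lower. Fn1 was higher by 2.05 ± 0.43 (adjusted p = 0.000217) and Spp1 by 1.57 ± 0.42 (adjusted p = 0.00332), both with groups apart. The calls for Bgn (1.09 ± 0.42, adjusted p = 0.0437) and Postn (1.27 ± 0.50, adjusted p = 0.0472) were near the threshold. They ended without 5 and 6 of the 8 animals, respectively, with adjusted p up to 0.281 for Bgn and 0.156 for Postn. Both ended without 15 ppm animals 354 and 356 and 6 ppm animals 295 and 298, Bgn also without 6 ppm animal 300, and Postn also without 15 ppm animal 358 and 6 ppm animal 299. Without 15 ppm animal 359, 7 genes were called.

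After 13 w the differences between 15 and 6 ppm were negative for all 10 genes. Of these, 5 were lower at 15 than at 6 ppm and 0 higher, where 15.9% of all genes were called lower and 18.3% higher. Ogn differed by -1.59 ± 0.48 (adjusted p = 0.00739), Dcn by -1.47 ± 0.44 (adjusted p = 0.00654), Col1a2 by -1.33 ± 0.34 (adjusted p = 0.00147), Col1a1 by -1.18 ± 0.40 (adjusted p = 0.017) and Spp1 by -1.04 ± 0.42 (adjusted p = 0.0471). Without 15 ppm animal 375 or 6 ppm animal 320, 3 genes were called, and Col1a1 was no longer among them (adjusted p up to 0.0613). The Spp1 call ended without 6 of the 8 animals, 375, 378 and 379 of 15 ppm and 316, 317 and 320 of 6 ppm (adjusted p up to 0.177).

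At 4 w, 15 ppm differed from 0.7 ppm in Dcn alone, which was lower, where 16.1% of all genes were called lower and 21.3% higher. Dcn had 10.61, 10.64, 11.19 and 10.19 at 0.7 ppm and 10.65, 9.27, 8.28 and 9.64 at 15 ppm. Its groups overlapped in animal 362, and it fell by 1.19 ± 0.44 (adjusted p = 0.026). The call ended without 0.7 ppm animal 245 or 15 ppm animal 365 or 368 (adjusted p up to 0.18), and without animal 362 the count was 3. Ogn missed the threshold at -1.17 ± 0.48 (adjusted p = 0.0501). Of its other probe sets, in a fit over all probe sets, 2 were called (-1.92 ± 0.50, adjusted p = 0.00183, and -1.86 ± 0.53, adjusted p = 0.00395). The remaining probe set of Ogn was not called (-1.16 ± 0.48, adjusted p = 0.0565). Fn1 had the single positive difference, 0.59 ± 0.43 (adjusted p = 0.304).

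At the other doses of 4 w, 0 genes were called at 2, 6 and 10 ppm, where 0.0211%, 3.28% and 14.8% of all genes were. The medians were 0.52, -0.42 and 0.22. Against 6 ppm, 15 ppm called 0 of the 10 genes at 4 w, where 22.8% of all genes were called, and 1 without 6 ppm animal 310.

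**Figure D3:**
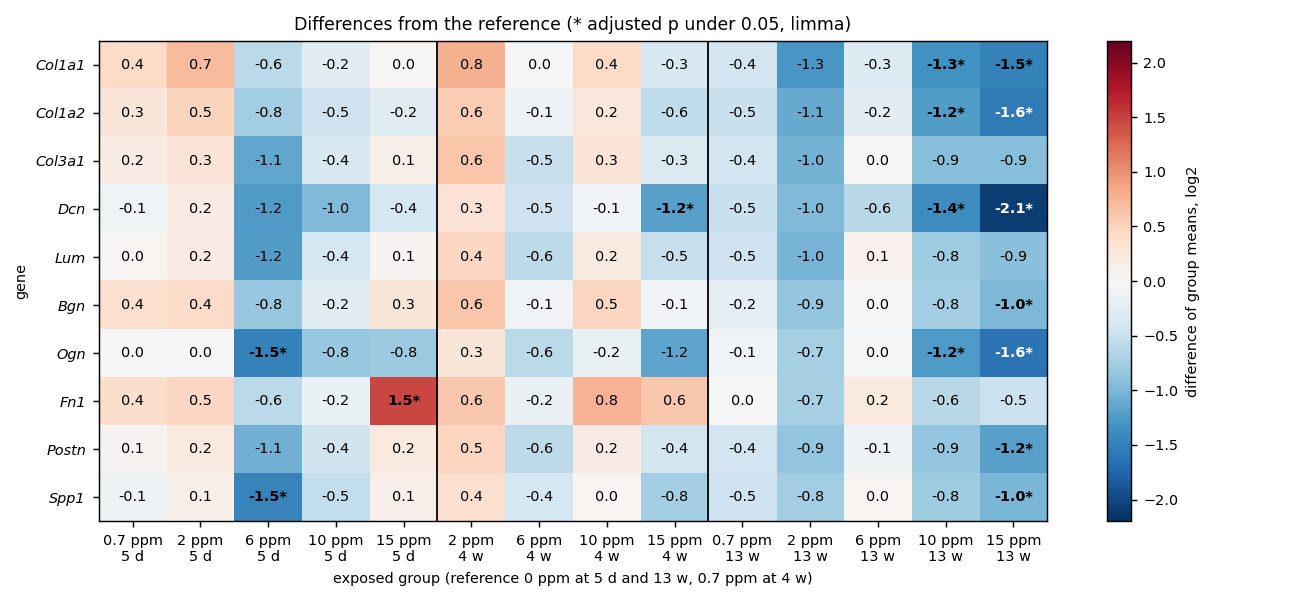
Difference of group means on the log2 scale (colour and number) for the 10 genes in each dose group, against 0 ppm at 5 d and 13 w and against 0.7 ppm at 4 w, with an asterisk where limma's adjusted p was under 0.05. Fn1 at 15 ppm after 5 d is the single marked positive value, and the 15 ppm column of 13 w holds 7 marked negative values.

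Whether the response at 13 w differed from that at 5 d was tested as an interaction. At 15 ppm all 10 interaction values were negative with a median of -1.28, and 1 gene was called lower and 0 higher, where 6.09% of all genes were called lower and 9.21% higher. The called gene was Fn1, at -1.93 ± 0.61 (adjusted p = 0.0221). Its response went from 1.46 to -0.47, and the call ended without 0 ppm animal 208 of 5 d, 0 ppm animal 230 of 13 w, 15 ppm animal 356 of 5 d or 15 ppm animal 375 of 13 w (adjusted p up to 0.0592). Col1a2 (-1.32 ± 0.48, adjusted p = 0.0512), Dcn (-1.69 ± 0.62, adjusted p = 0.0532) and Col1a1 (-1.51 ± 0.56, adjusted p = 0.0586) missed the threshold. Without 15 ppm animal 359 of 5 d, 4 genes were called, and with only the arrays of the groups compared in the fit, 6 were.

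The other tests between times called 0 of the 10 genes. These were the interaction at 6 ppm (0% of all genes called) and at 10 ppm (0.00703%), the 15 ppm response against 0.7 ppm at 4 w minus that at 5 d (3.45%) and at 13 w minus that at 4 w (0.0633%), and the unexposed animals of 13 w against those of 5 d (2.24%). At 6 ppm all 10 interaction values were positive with a median of 0.89, and 2 had an unadjusted p under 0.05, where 10.5% of all genes did, Spp1 at 1.5 ± 0.59 and Ogn at 1.44 ± 0.68.

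Because the 10 genes moved together from animal to animal, each of the 7 others was also compared at an equal collagen signal. The mean of Col1a1, Col1a2 and Col3a1 on the same array was added to the fit as a covariate, a choice made after the values were seen. This narrowed the SE to 0.16 to 0.28. In this fit Fn1 was higher relative to the collagens at 15 ppm at all 3 times, by 1.49 ± 0.22 at 5 d (adjusted p = 1.29e-07), 0.97 ± 0.22 at 4 w (adjusted p = 0.000287) and 0.75 ± 0.24 at 13 w (adjusted p = 0.00769). At 13 w the collagen mean was itself lower at 15 ppm (11.51) than at 0 ppm (12.84). None of these collagens overlapped between those groups, so no such animals shared a collagen signal and the fit extrapolated. Without the covariate the differences there were negative for Fn1 (-0.47) and Lum (-0.92), and neither was called.

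On the plain scale, Fn1 minus the collagen mean was -3.52 to -2.94 without exposure and -1.90 to -1.28 at 15 ppm after 5 d. At 4 w it was -3.48 to -3.03 at 0.7 ppm and -2.55 to -1.74 at 15 ppm, and at 13 w it was -4.19 to -3.09 at 0 ppm and -2.65 to -2.46 at 15 ppm. The 15 ppm animals lay above the reference animals at each time. The Fn1 call at 13 w ended without 0 ppm animal 229, whose -4.19 was the lowest of all (0.50, adjusted p = 0.0845), and the calls at 5 d and 4 w were made without any of the 8 animals.

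Dcn went the opposite way at equal collagen signal. At 15 ppm it was lower at 4 w, with a difference of -0.83 ± 0.24 (adjusted p = 0.00515), and at 13 w, with -0.89 ± 0.26 (adjusted p = 0.00464), both called without any of the 8 animals. Dcn minus the collagen mean was -1.77 to -1.27 at 0 ppm and -2.47 to -1.99 at 15 ppm after 13 w, without overlap. At 5 d the Dcn difference was -0.37 ± 0.24 and was not called (adjusted p = 0.245). Ogn was lower at 5 d (-0.77 ± 0.23, adjusted p = 0.00579) and at 4 w (-0.74 ± 0.23, adjusted p = 0.00879, which became 0.0503 without 15 ppm animal 368), and not called at 13 w (-0.25 ± 0.25, adjusted p = 0.457, against 0.0465 with the fibroblast covariate described next).

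Lum was called higher at equal collagen signal at 13 w (0.70 ± 0.20, adjusted p = 0.00356), although its 15 and 0 ppm animals overlapped on the plain scale. With the mean of the fibroblast markers as the covariate in place of the collagens, Lum was not called at 13 w (adjusted p = 0.424). Fn1 was called higher at all 3 times (1.16, 0.82 and 0.48, with adjusted p = 2.24e-06, 0.00046 and 0.0461). Dcn (-0.69, -0.98 and -1.17) and Ogn (-1.13, -0.92 and -0.59, with adjusted p = 8.98e-05, 0.00123 and 0.0465) were called lower at all 3 times. At 13 w the fibroblast mean did not overlap between the groups either, with 7.51 to 7.95 at 0 ppm and 7.0 to 7.48 at 15 ppm. No such animals shared a fibroblast signal, so the fibroblast fit extrapolated there too. Bgn, Postn and Spp1 were not called at 15 ppm at any time under either covariate. At 6 ppm after 5 d no gene was called, with Spp1 at -0.79 ± 0.27 (adjusted p = 0.0569).

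In all genes, the fit with the collagen covariate called 18.9% higher and 20.2% lower at 15 ppm after 5 d, 22.0% and 17.2% at 4 w, 24.0% and 20.5% at 13 w, and 3.34% and 4.33% at 6 ppm after 5 d. Of the 7 genes it called 1 higher and 1 lower, 1 and 2, 2 and 1, and 0 and 0, in the same order.

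**Figure D4:**
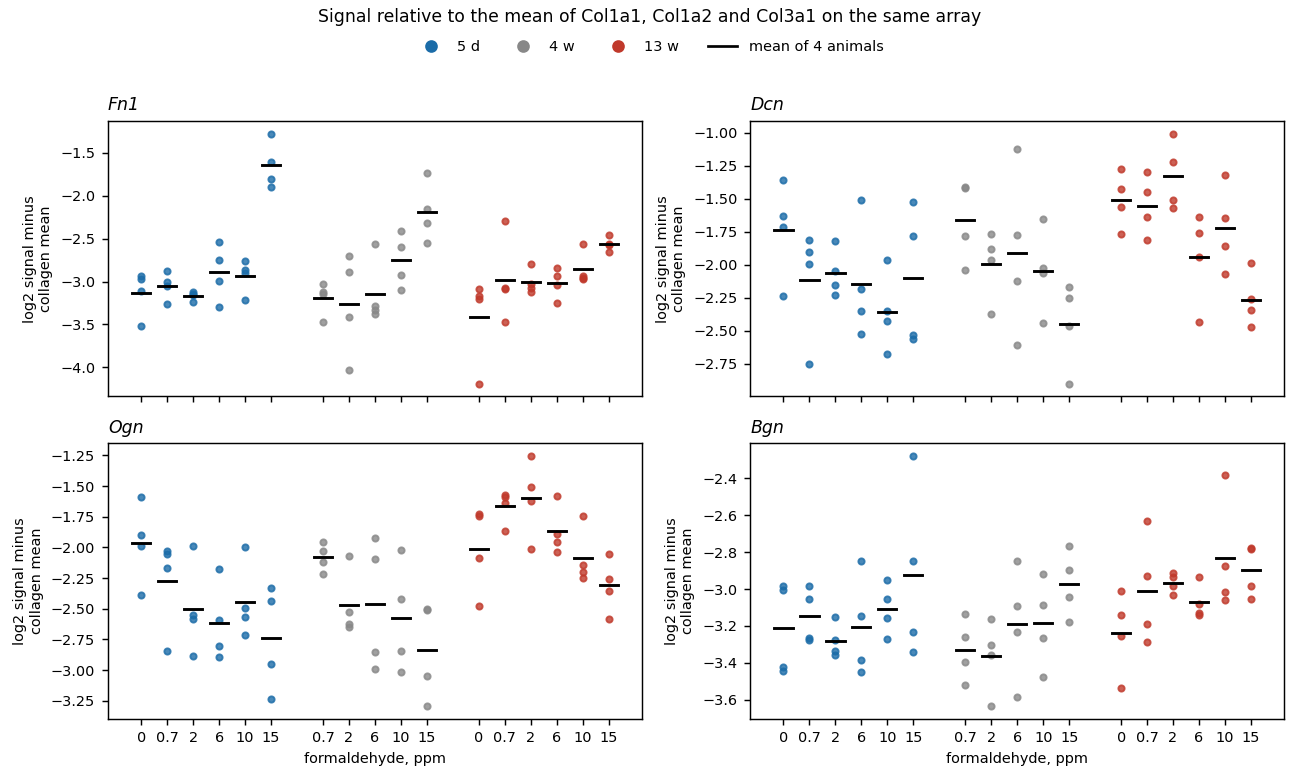
Log2 signal of Fn1, Dcn, Ogn and Bgn minus the mean log2 signal of Col1a1, Col1a2 and Col3a1 on the same array (vertical axis), for each animal (points) with group means (black bars), by dose in ppm and time. Fn1 at 15 ppm lies above its reference at each of the 3 times, and Dcn at 15 ppm lies below its reference at 4 w and 13 w.

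Other matrix genes were read from lists that hold none of the 10. The counts stand against all genes at 15 ppm, of which 18.3% were called higher and 19.5% lower at 5 d, and 23.5% and 20.6% at 13 w. Among 15 further collagens, 1 rose and 3 fell at 15 ppm after 13 w (list median -0.46), neither above the share of all genes. The one that rose was Col18a1, the source of endostatin and a basement membrane collagen, at 1.57 ± 0.14 (adjusted p = 2.59e-14), and it also rose at 5 d by 1.33 ± 0.14 and at 4 w by 1.39 ± 0.14. Those that fell were the fibril collagens Col11a1 (-1.24 ± 0.35, adjusted p = 0.00297), Col27a1 (-0.40 ± 0.12, adjusted p = 0.00699) and Col5a1 (-0.78 ± 0.31, adjusted p = 0.0328). Col27a1 was of low signal, 5.94 at 15 ppm against 6.33 at 0 ppm. At 5 d Col18a1 was the only one of the 15 called at 15 ppm, and 0 were called at 6 ppm.

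Among 16 genes of collagen processing and crosslinking, 0 rose and 2 fell at 15 ppm after 13 w. They were the crosslinking oxidases Lox (-1.05 ± 0.32, adjusted p = 0.00619) and Loxl3 (-0.67 ± 0.24, adjusted p = 0.0205). Loxl3 was of low signal, 5.92 at 15 ppm against 6.59 at 0 ppm. At 5 d 1 rose and 0 fell, the prolyl hydroxylase P4ha1 at 0.54 ± 0.14 (adjusted p = 0.00179). Of 7 further proteoglycans of the leucine-rich family, 0 rose and 3 fell at 15 ppm after 13 w, namely Chad (-1.25 ± 0.24, adjusted p = 1.92e-05), Ecm2 (-1.13 ± 0.36, adjusted p = 0.00753) and Omd (-1.65 ± 0.53, adjusted p = 0.0092). Chad, which encodes the cartilage protein chondroadherin, also fell at 5 d (-0.61 ± 0.24) and at 4 w (-0.73 ± 0.24).

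The 25 matricellular and provisional matrix genes moved in both directions, in counts near or below the shares of all genes. Those shares at 15 ppm were 18.3% higher and 19.5% lower at 5 d, and 23.5% and 20.6% at 13 w. At 15 ppm after 5 d, 5 rose and 2 fell, with Efemp1, the gene of a fibulin, lower by a difference of -1.11 ± 0.19 and with Vcan, the gene of the hyaluronan-binding proteoglycan versican, up by 3.40 ± 0.25 (adjusted p = 1.44e-16), the hyaluronan receptor gene Cd44 up by 1.46 ± 0.12 and the hyaluronan synthase gene Has2 up by 0.88 ± 0.17. At 13 w 2 rose and 5 fell, with Cd44 again up, by 1.10 ± 0.12, and Tgfbi (-1.25 ± 0.13), Efemp1 (-1.49 ± 0.19) and Ccn5 (-1.05 ± 0.17) lower. Vcan, like Fn1, had a lower response at 13 w than at 5 d, by an interaction of -3.64 ± 0.35 (adjusted p = 2.2e-11).

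Epithelial cells also make basement membrane genes. Of 17 such genes, 3 rose and 1 fell at 15 ppm after 5 d, where 18.3% of all genes rose and 19.5% fell. At 13 w 4 rose and 1 fell, where 23.5% of all genes rose and 20.6% fell. The counts of these genes were thus near or below the shares of all genes. The laminin chains Lama3 and Lamb3 rose at both times, Lama3 by 0.68 ± 0.12 and 0.79 ± 0.12. Of 12 matrix receptors, 0 rose and 3 fell at 5 d, and 0 rose and 2 fell at 13 w. The collagen receptor Ddr1 fell at both times, by 0.52 ± 0.09 and 0.36 ± 0.09, and so did the integrin chain Itgb6, by 0.58 ± 0.15 and 0.51 ± 0.15.

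Markers of other cell types were read on the same arrays. At 15 ppm after 13 w, 20.6% of all genes fell and 23.5% rose. There 4 of 15 fibroblast markers fell and 0 rose, with a list median of -0.75. Those that fell were Pi16, Lox, which is also in the crosslinking list, Vim and Dpt, the last at a low signal (5.64 against 6.6). Of 9 bone markers 1 fell and 0 rose (Bglap, -1.54 ± 0.44, adjusted p = 0.00334). Of 13 macrophage markers 6 fell, among them Cd14 (-0.59 ± 0.16), Csf1r (-0.57 ± 0.17) and Adgre1 (-0.84 ± 0.25), and Gpnmb rose by 0.96 ± 0.19. Their list mean ran from 7.92 to 8.30 at 0 ppm and from 7.65 to 7.95 at 15 ppm. The mean of the fibroblast list ran from 7.51 to 7.95 at 0 ppm and from 7.0 to 7.48 at 15 ppm after 13 w. The mean of the bone list ran from 7.94 to 8.56 and from 7.11 to 8.02. Within groups, over 68 arrays, the list means correlated with the collagen mean at 0.90 for fibroblast, 0.92 for bone, 0.81 for osteoclast, 0.74 for endothelium and 0.72 for smooth muscle. The values were 0.69 for nerve sheath, 0.54 for cartilage, 0.50 for nasal gland, 0.48 for macrophage and 0.05 for epithelium. They were -0.02 for erythroid, -0.32 for ciliated cell and -0.36 for olfactory neuron. At 2 ppm after 13 w the olfactory neuron list had a median difference of 1.17, with 0 of 5 genes called. At 15 ppm after 13 w, 7 of 10 epithelial markers rose and 2 fell, and 5 of 5 ciliated cell markers fell. The part of these cells in the results was not tested beyond the fibroblast covariate given above.

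At 6 ppm after 5 d, 2 of the 9 bone markers fell, Mepe (-1.15 ± 0.35) and Bglap (-1.36 ± 0.44), 1 of low signal rose (Sost, 0.28 ± 0.08), and 4 of 13 macrophage markers fell. Of all genes, 5.30% fell and 3.54% rose there. The bone list mean ran from 8.03 to 8.84 at 0 ppm and from 7.42 to 8.10 at 6 ppm. On the 15 ppm arrays of 5 d, where Fn1 rose, 5 of the 13 macrophage markers rose and 0 fell, against 18.3% and 19.5% of all genes. Among those that rose were Gpnmb by 2.28 ± 0.19, Cd68 by 1.84 ± 0.17 and Lyz2 by 1.65 ± 0.23. The macrophage list mean there ran from 8.75 to 9.61, against 8.33 to 8.79 at 0 ppm. Of the fibroblast markers S100a4 alone was called, higher by 1.15 ± 0.29. The part of macrophage RNA in the Fn1 signal was not tested.

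The genes whose signals were most like those of the 10 were found by Pearson correlation over the 68 arrays. With the mean of Col1a1, Col1a2 and Col3a1 these were Col5a2 (0.979), Col11a1 (0.957), Cthrc1 (0.951), Rcn3 (0.948), Mmp2, Serpinf1 and Sparc (each 0.947) and Cdh11 (0.943). Col5a2, which encodes a chain of type V collagen, lies next to Col3a1 on chromosome 9 in RefSeq. With Spp1 they were Sfrp4 (0.941), the collagenase gene Mmp13 (0.923), Scpep1 (0.912), Lgals1 (0.906) and Serpinf1 (0.906).

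Ogn had a partly different company, Enpep (0.969), Omd (0.960), Gpx3 (0.943), Cd200 (0.936) and Ptgis (0.935). Omd, the gene of osteomodulin, is the neighbour of Ogn on chromosome 17, and Dcn and Lum are neighbours on chromosome 7. With Fn1 the nearest were Clic4 (0.932), Zeb2 (0.916), Lgals1 (0.904), Emp3 (0.902) and Lrp1 (0.902). All of these points share arrays and tissue preparation, and the values are descriptions with no test.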

How the data were processed

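The deposited values are log2 signals of Affymetrix Rat230_2 arrays, which the authors made with GCOS 1.0 and RMA (version not given), per the submitters' processing notes, and no further normalization was applied to them. Of 31099 probe sets, 20826 named 1 gene, and each of 14217 genes was read from its brightest probe set. All 68 arrays entered a limma 3.58.1 fit (R 4.3.3) with a mean for each group, 51 residual and 2.85 prior degrees of freedom, and p was adjusted by Benjamini-Hochberg within each comparison. The fit was tested on simulated data. Animals are separate individuals by the labels, and 4 per group limit the precision. The genes, gene lists and tests were chosen with earlier results of these data known. Named are the 10 genes, up to 4 called genes of a list by smallest adjusted p, and the nearest genes by correlation (8 for the collagen mean, 5 for others). Alternatives were other normalizations and gene summaries, a low-signal filter, array weights, a trended robust fit, fewer arrays, RNA quality covariates, a 1.5-fold minimum, another reference, and leaving out each animal. Figures were drawn with matplotlib 3.10.9.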

Additional observations from a re-analysis of the deposited data

Results flagged for a closer look

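In 4 of the 170 groups of 4 animals (10 genes in 17 groups), 1 animal lay far from the other 3 by Dixon's test, a rule that chance meets in about 1 of 20 groups. In the 15 ppm group of 4 w, animal 362 had a Col1a1 signal of 12.67 with the others at 11.36 to 11.54, and a Fn1 signal of 10.35 with the others at 9.44 to 9.59. At 2 ppm after 13 w, animal 286 had a Col3a1 signal of 11.81 with the others at 10.28 to 10.49. At 0 ppm after 13 w, animal 225 had a Postn signal of 10.50 with the others at 11.14 to 11.16.

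The Fn1 response to 15 ppm differed between 13 w and 5 d by -1.93 in the interaction test.

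At 2 ppm, every exposed animal lay above the mean of the unexposed animals at 5 d and below it at 13 w for 4 of the 10 genes. The difference between the times was -1.97 for Col1a1, -1.60 for Col1a2, -1.12 for Dcn and -1.29 for Bgn. For Col1a1 the mean departure was 0.70 at 5 d and -1.28 at 13 w. The difference between times was not tested at this dose, and 2 ppm was not called for any of the 10 genes at either time. The share of all genes with such a pattern was not counted, and these genes departed together from animal to animal.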

How the results depend on the processing

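Of 284 counts of called genes among the 10 under other settings, 254 stayed within 1.5 times the reported count and 30 moved. The cause was not tested. No paired analysis was possible because each animal number occurs in 1 group.

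At 6 ppm after 5 d the count of 2 became 1 with the mean of all probe sets, with the RNA integrity number as a covariate or with 0.7 ppm as the reference, 0 without arrays lacking that number or with the beta-actin covariate, and 6 when only the arrays of the groups compared were fitted, a setting added after seeing the data. At 10 ppm after 13 w the count of 4 became 0 with 0.7 ppm as the reference and 7 with only the groups compared. At 15 ppm after 13 w the count of 7 became 4 without arrays lacking an integrity number, with the beta-actin covariate and with 0.7 ppm as the reference. At 15 ppm after 4 w the count of 1 became 2 with the mean of all probe sets, the filter at a highest group mean of 6, the integrity number or the beta-actin covariate, and 0 with array weights, only the times compared or only the groups compared. For 15 against 6 ppm the count of 4 at 5 d became 2 with either covariate or without arrays lacking an integrity number, and that of 0 at 4 w became 1 with array weights. For the 15 ppm interaction of 13 w and 5 d the count of 1 became 2 with cyclic loess, the mean of all probe sets or the integrity number, 3 with the filter, array weights or the beta-actin covariate, 4 with only the times compared and 6 with only the groups compared.

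Leaving out 1 animal in turn gave 0 to 2 calls at 6 ppm and 1 to 1 at 15 ppm after 5 d, 2 to 4 at 10 ppm and 4 to 7 at 15 ppm after 13 w, 0 to 3 at 15 ppm after 4 w, and 2 to 7, 0 to 1 and 3 to 7 for 15 against 6 ppm at 5 d, 4 w and 13 w. The 15 ppm interaction of 13 w and 5 d gave 0 to 4. In the other comparisons it gave 0 to 0. All 10 genes had group means of 8.61 or more, above the low-signal level of 6.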
